A study of Rattus norvegicus with 6 samples.

Results

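Lineage miRNAs of cartilage and smooth muscle were followed in the small RNA of rat extracellular vesicles: both strands of miR-140, miR-143-3p and miR-145-5p. They were taken by name from the deposited table of raw tag counts, where all 4 were listed, and made up 4 of 311 distinct mature sequences. They were picked by name and because counts were present, so their presence and their levels are described and not tested. The vesicles (exosomes, membrane-bound particles that cells release) came from bone marrow mesenchymal stromal cells (BMSCs), adherent marrow cells that can form bone, cartilage and fat cells in culture. Marrow was flushed from the tibias and femurs of male SD rats aged 4 weeks. Hypoxia libraries came from cultures at 1% oxygen and normoxia (control) libraries from cultures at 21% oxygen, with 3 libraries each, and both groups had 5% CO2 and medium with 10% fetal bovine serum and, as antibiotics, penicillin and streptomycin at 1%. No genotype or transgene is named for either group. No label ties a library to an animal or a culture dish of its own, so the replicate spread behind each p-value may be technical.

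A miRNA gene is transcribed as part of a longer RNA that folds into a hairpin. Cutting of the hairpin leaves a duplex of a 5p and a 3p strand, and usually one of them is kept in an Argonaute protein while the other is degraded. The seed, bases 2 to 8 of the kept strand, then pairs with target mRNAs. miR-140 is a miRNA of cartilage, where SOX9 activates it, and mice that lack it have skeletal defects. miR-143 and miR-145 are made from a shared transcript that serum response factor and myocardin activate in smooth muscle, and in mice they favour the contractile state of these cells. miR-145-5p is also known to repress SOX9 in human chondrocytes.

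The sequences are shown because the comparison turns on which strand of each hairpin was counted. They are from RefSeq (rat build GRCr8), run 5′ to 3′, and have the seed in capitals. The 4 deposited sequences were identical to them.
rno-miR-140-5p: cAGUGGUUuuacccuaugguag
rno-miR-140-3p: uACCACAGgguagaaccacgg
rno-miR-143-3p: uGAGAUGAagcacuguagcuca
rno-miR-143-5p: gGUGCAGUgcugcaucucugg
rno-miR-145-5p: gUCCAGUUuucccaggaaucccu
rno-miR-145-3p: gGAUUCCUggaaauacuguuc

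All 6 strands had different seeds. No other rat miRNA in the RefSeq table and no other listed sequence shared a seed with any of them. Their lengths were 21 to 23 bases. miR-140-3p and miR-143-3p begin with U, as did 49.2% of the 197 annotated sequences, which held 78.3% of the counts on average over the 6 libraries. miR-140-5p begins with C, as did 17.8% of annotated sequences with 5.12% of the counts. miR-145-5p begins with G, as did 7.11% of annotated sequences with 0.1% of the counts.

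The miR-140 hairpin shows how its strands face each other, with the mature strands in capitals and the 5p strand first.
Mir140 hairpin: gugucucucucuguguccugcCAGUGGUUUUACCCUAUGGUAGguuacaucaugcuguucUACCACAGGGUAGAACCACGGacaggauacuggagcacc
In a fold predicted with RNAfold, 19 of the 22 bases of the 5p strand paired with the 3p strand. Among the first 4 bases of each strand, 3 were paired for 5p and 4 for 3p. Of these, 2 were in a G-C pair for 5p and 2 for 3p. In the rat gene table (assembly GRCr8) Mir140 lies on chromosome 19 within Wwp2, a gene for a ubiquitin ligase. Mir143 and Mir145 lie on chromosome 18, both within Carmn, a long non-coding RNA. The files were made on another build (rn6), so no coordinates are given.

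Total counts were 118683, 145961 and 248542 in hypoxia replicates 1 to 3 and 106954, 205495 and 227149 in normoxia replicates 1 to 3. Hypoxia replicate 1 stood apart. It listed 85 sequences, against 129 to 183 in the other libraries, and its mean correlation with them was 0.725, against 0.770 to 0.828. The labelled cell type was read beside 14 mesenchymal miRNAs. All 14 were listed, at 35.1 to 44.5% of counts in hypoxia libraries and 33.2 to 46.6% in normoxia libraries. miR-21-5p made up most of these counts, and miR-222-3p had only 6 and 15 counts, in hypoxia replicates 2 and 3. Many of the 14 are also in the cartilage or smooth muscle lists given below, so this list cannot tell these cell types apart. Results that rest on hypoxia replicate 1 are given with and without it.

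The larger strand of miR-140 was not the same in all libraries, and in each group only replicate 1 differed from the rest. In hypoxia replicates 1, 2 and 3 the 3p strand had 145, 15 and 88 counts and the 5p strand had 43, 46 and 179. In normoxia replicates 1, 2 and 3 the 3p strand had 29, 28 and 47 counts and the 5p strand had 14, 48 and 62. The 3p strand was therefore the larger in replicate 1 of each group, and the 5p strand was the larger in the other 4 libraries. The replicate 1 libraries also had the lowest total counts, 118683 in hypoxia and 106954 in normoxia. Whether depth or a shared origin of same-numbered libraries bears on the strand order was not tested. Comparisons between sequences, here and below, are of counts and not of molecules, because equal ligation and amplification of sequences was not tested.

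As a share of both strands, 3p took 77.1% in hypoxia replicate 1 (95% exact binomial interval 70.5 to 82.9%), 24.6% in replicate 2 (14.5 to 37.3%) and 33.0% in replicate 3 (27.4 to 39.0%). In normoxia it took 67.4% in replicate 1 (51.5 to 80.9%), 36.8% in replicate 2 (26.1 to 48.7%) and 43.1% in replicate 3 (33.7 to 53.0%). These intervals reflect counting error alone. How reads were counted is not given, so amplified copies of a molecule may have been counted separately. The intervals would then be too narrow. Only the interval of normoxia replicate 3 included 50%, and the intervals of both replicate 1 libraries lay above it.

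**Figure D1:**
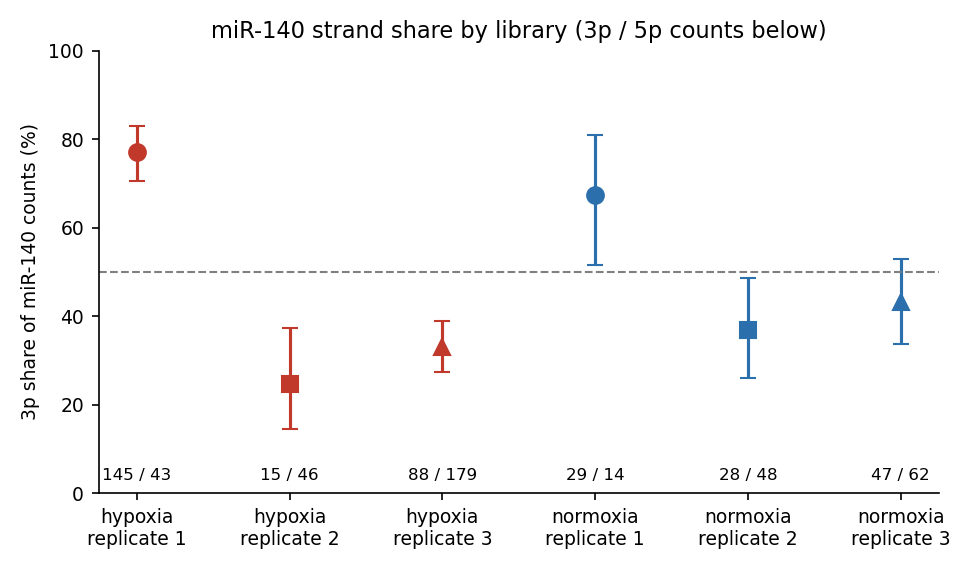
Share of miR-140 counts from the 3p strand (y axis, percent) in each library (x axis; hypoxia red, normoxia blue), with 95% exact binomial intervals, the line at 50% and the 3p and 5p counts below. Both replicate 1 libraries lie above the line, at 77.1% and 67.4%, and the other 4 lie between 24.6 and 43.1%.

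Summed over libraries the strands came out nearly equal, with 248 counts of 3p and 268 of 5p under hypoxia and 104 of 3p and 124 of 5p under normoxia. The sums hide the opposite order within libraries. The log2 ratio of 3p to 5p, with 0.5 added to each count, averaged -0.29 ± 1.78 in the hypoxia libraries and -0.05 ± 0.95 in the normoxia libraries (SD, n = 3 each). The difference, hypoxia minus normoxia, was -0.24, with a two-sided exact permutation p of 0.8, where 3 against 3 libraries cannot go below 0.1. Adjusted over the 4 within-library measures computed, p was 0.8 in this exact test. The spread between replicates of a group was several times this difference. Without hypoxia replicate 1 the difference was -1.26 (exact permutation p = 0.2, the smallest that 2 against 3 libraries allow). Without normoxia replicate 1 it was 0.29 (exact permutation p = 1.0). Without hypoxia replicate 2 or 3 it was also above 0, at 0.41 (exact permutation p = 0.8) and 0.12 (exact permutation p = 1.0). Without both replicate 1 libraries it was -0.72 (exact permutation p = 0.333, the smallest that 2 against 2 libraries allow).

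miR-140 was then set beside other hairpins. Of 42 annotated precursors with both arms listed, 16 had at least 30 counts of the smaller arm, a minimum chosen after the data were seen. In counts summed over the libraries, which hold opposite strand orders, the smaller strand of miR-140 held 47.3%, the most even division of the 16. Within each single library another of these precursors divided more evenly, and mir-140 ranked 2 in hypoxia replicate 1 and in all normoxia libraries, 5 in hypoxia replicate 2 and 3 in hypoxia replicate 3, among the 14 to 16 with counts. In the summed counts, next came mir-3559 at 34.7%, a sparse precursor with 98 counts in all, and mir-455, also known from cartilage, at 29.0%. Only 4 precursors had both arms in every library: mir-140, let-7d, mir-24-2 and mir-199a. Of these 4, mir-140 was the only one whose larger arm differed between libraries. In let-7d the 3p share ran from 3.53 to 26.9%, highest in hypoxia replicate 1, in mir-24-2 from 86.4 to 97.7% and in mir-199a from 96.2 to 99.3%. The 3p strand of mir-24-2 is listed for 2 precursors, so that share is not of 1 hairpin alone, and the same holds for the 5p strands of mir-181a-1 and mir-125b-1 among the 16. Among the 16, the larger arm also differed between libraries for mir-3559, mir-28 and mir-342, each of which had no listed count for an arm in some libraries.

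**Figure D2:**
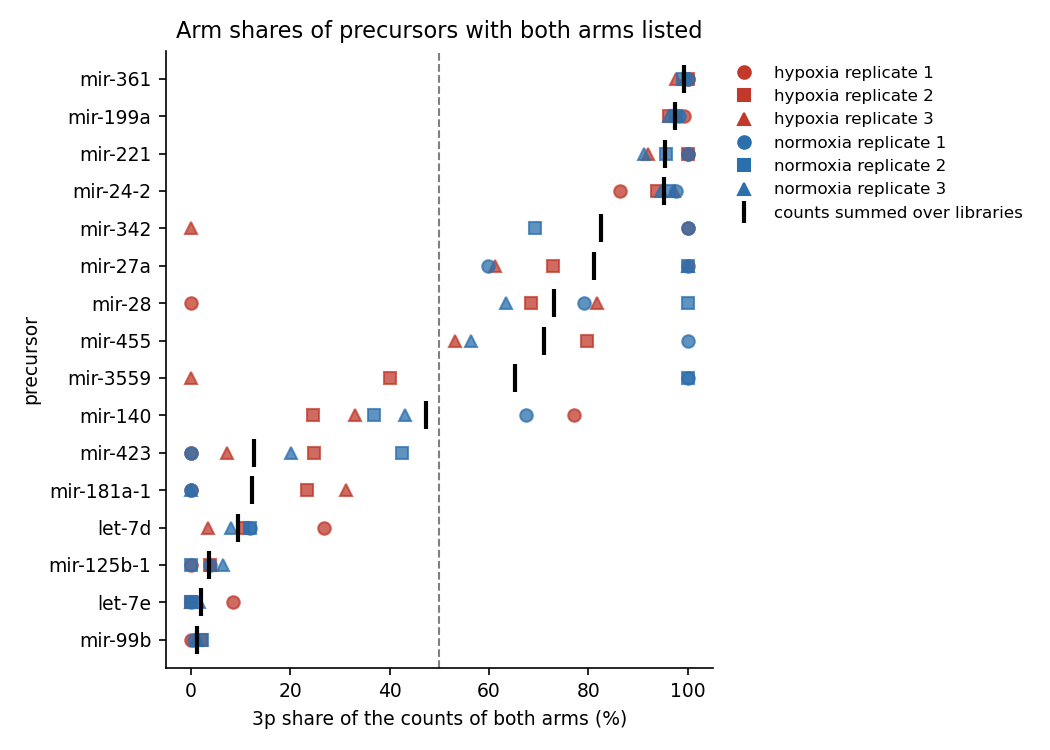
Share of the counts of both arms that came from the 3p arm (x axis, percent) for 16 precursors with at least 30 counts of the smaller arm (y axis), with a symbol per library (hypoxia red, normoxia blue) and a black bar for the counts summed over libraries. Of the black bars that of mir-140 lies nearest to 50%, with its libraries on both sides of the line, while within each library another precursor lies nearer. An arm of mir-24-2, mir-181a-1 and mir-125b-1 is shared by 2 precursors each.

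The level of each miR-140 strand is given in CPM scaled by edgeR's TMM factors. miR-140-5p, which in mice is known to repress the aggrecan-cutting protease gene Adamts5, had 291, 340 and 722 CPM in hypoxia replicates 1 to 3. It had 136, 235 and 302 CPM in normoxia replicates 1 to 3. The groups overlapped, because hypoxia replicate 1 lay just below normoxia replicate 3. The mean was 451 ± 236 CPM in hypoxia and 224 ± 83.5 CPM in normoxia (SD of 3 libraries). In edgeR's quasi-likelihood test hypoxia over normoxia gave a log2 fold change of 1.01 (SE 1.44; 95% interval -2.11 to 4.12), at an adjusted p of 0.998.

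The overlap of miR-140-5p depended on the scaling. As a share of all counts it took 0.0362, 0.0315 and 0.0720% in the hypoxia libraries and 0.0131, 0.0234 and 0.0273% in the normoxia libraries. On that scale, and in the authors' normalized table with 86, 87 and 186 in hypoxia against 33, 56 and 73 in normoxia, all hypoxia libraries were above all normoxia libraries. With library totals 2.8% of the 107 tested sequences were higher in this way, and 2.8% in the normalized table. With TMM factors, 0% were higher in this way, and the groups did not overlap in either direction for 7.48%. Without hypoxia replicate 1 the log2 fold change of miR-140-5p in edgeR was 1.43 (adjusted p 0.974).

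miR-140-3p, the other strand, had 981, 111 and 355 CPM in hypoxia replicates 1 to 3, against 281, 137 and 229 CPM in normoxia replicates 1 to 3. Hypoxia held both the highest and the lowest library, so the groups overlapped on each scale tried. The mean was 482 ± 449 CPM in hypoxia and 216 ± 72.8 CPM in normoxia (SD of 3 libraries). The log2 fold change in edgeR was 1.16 (SE 1.50; 95% interval -2.08 to 4.40), at an adjusted p of 0.998. Without hypoxia replicate 1 it was 0.29 (adjusted p 0.974 in edgeR). Within its library, miR-140-3p ranked 45 of 85 listed sequences in hypoxia replicate 1 and between 61 and 98 in the other 5 libraries.

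Together the miR-140 strands took 0.158, 0.0418 and 0.107% of counts in hypoxia replicates 1 to 3 and 0.0402, 0.0370 and 0.0480% in normoxia replicates 1 to 3. Hypoxia replicates 1 and 3 lay above every normoxia library, and replicate 2 lay within the normoxia range. The difference was 0.0608 percentage points, with a two-sided exact permutation p of 0.2 and 0.4 after adjustment over the 4 measures. Without hypoxia replicate 1 it was 0.0329 points (exact permutation p = 0.4). In bulk vesicle RNA, fewer vesicles of a cell type and less of a miRNA per vesicle cannot be told apart.

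miR-143-3p was the abundant member. It is known in mice to repress Elk1, a growth-linked cofactor of serum response factor. It had 1298, 729 and 1295 counts in hypoxia replicates 1 to 3, or 8783, 5390 and 5221 CPM. In normoxia replicates 1 to 3 it had 680, 671 and 1423 counts, or 6587, 3285 and 6920 CPM. Hypoxia replicate 1 was the highest library and normoxia replicate 2 the lowest, with the other 4 between them in mixed order. It ranked 16 to 21 in the hypoxia libraries and 17 to 24 in the normoxia libraries.

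The mean of miR-143-3p was 6465 ± 2009 CPM in hypoxia and 5598 ± 2009 CPM in normoxia (SD of 3 libraries). Its log2 fold change in edgeR was 0.21 (SE 0.42; 95% interval -0.69 to 1.10), at an adjusted p of 0.998. This was the narrowest interval among the 4 miRNAs. As a share of all counts it took 1.09, 0.499 and 0.521% in hypoxia and 0.636, 0.327 and 0.627% in normoxia, a difference of 0.175 points (two-sided exact permutation p = 0.6, adjusted 0.8). Without hypoxia replicate 1 the difference was -0.0194 points (exact permutation p = 1.0), so the sign of the share difference rested on that library. The log2 fold change in edgeR stayed above 0 without hypoxia replicate 1, at 0.14 (adjusted p 0.974). It fell below 0 without normoxia replicate 2, at -0.0135 (adjusted p 0.994 in edgeR).

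miR-145-5p, which in smooth muscle is known to repress the transcription factor gene Klf4, was scarce. It had no listed count, 18 and 45 counts in hypoxia replicates 1 to 3, and no listed count, 48 and 14 in normoxia replicates 1 to 3. The libraries without it were again replicate 1 of each group, which had the lowest total counts. Its mean was 105 ± 94.0 CPM in hypoxia and 101 ± 121 CPM in normoxia (SD of 3 libraries). The log2 fold change in edgeR was 0.05 (SE 2.18; 95% interval -4.67 to 4.76), at an adjusted p of 0.998, and the interval covers differences of many fold in either direction. Without hypoxia replicate 1 it was 0.85, also in edgeR with an adjusted p of 0.974.

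miR-143-3p and miR-145-5p come from the same transcript, but their counts were far apart. Whether their molecules in the vesicles were as far apart was not tested. Where both were listed, miR-143-3p had 40.5 and 28.8 times the counts of miR-145-5p in hypoxia replicates 2 and 3, against 14.0 and 102 times in normoxia replicates 2 and 3. The normoxia libraries held both the smallest and the largest ratio. Of the other strands of these hairpins, miR-143-5p had 14 counts in normoxia replicate 3 and was listed in no other library, and miR-145-3p was not listed. miR-143-5p was too scarce to pass the low-count filter, so no test of it was made.

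**Figure D3:**
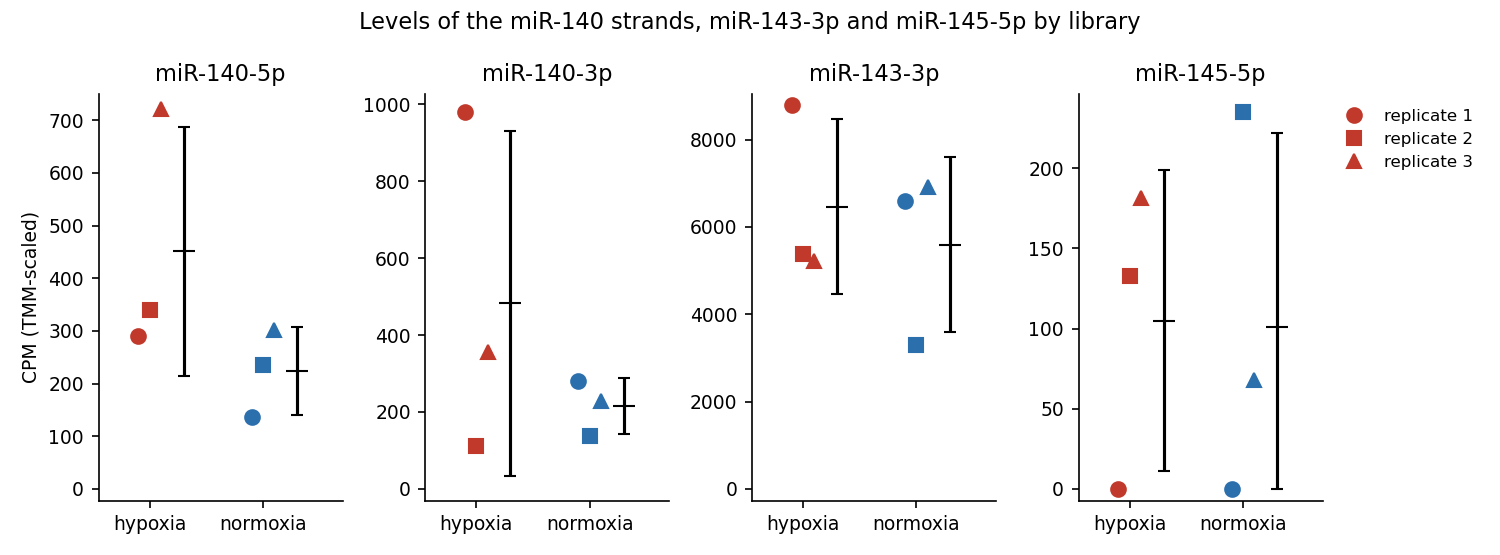
CPM scaled by TMM factors (y axes, each starting at 0) of miR-140-5p, miR-140-3p, miR-143-3p and miR-145-5p in each library (hypoxia red and left, normoxia blue and right; circle, square and triangle for replicates 1, 2 and 3). Black marks give the mean and SD of 3 libraries, with bars cut off at 0; the groups overlap in each panel, and both replicate 1 libraries lie at 0 for miR-145-5p.

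Within each library miR-143-3p exceeded the summed miR-140 strands, by 6.90, 11.95 and 4.85 times in hypoxia replicates 1 to 3 and by 15.8, 8.83 and 13.1 times in normoxia replicates 1 to 3. The ratio needs no scaling between libraries. Its log2 value averaged 2.88 ± 0.65 in hypoxia and 3.60 ± 0.43 in normoxia (SD of 3 libraries), a difference of -0.72. The two-sided exact permutation p was 0.2, and 0.4 after adjustment over the 4 measures. The groups overlapped, since hypoxia replicate 2 lay above normoxia replicate 2.

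In edgeR, 0 of the 4 miRNAs passed an adjusted p under 0.05, as did 0% of the 107 sequences tested. At an unadjusted p under 0.05 the count was 0 of 4, against 0.935% of all tested sequences, or 1 sequence. DESeq2 also had 1 of 107 under that limit and limma-voom had 4, with 0 called by either after adjustment. All 4 miRNAs passed the filter on low counts.

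By mean CPM the order was miR-143-3p, miR-140-3p, miR-140-5p and miR-145-5p, at ranks 20, 66, 69 and 93 of 100 tested annotated miRNAs. The miR-140 strands, at 349 and 337 CPM over all libraries, did not differ beyond their spread. The nearest miRNAs in that order were miR-122-5p (6148 CPM), a liver miRNA, above miR-143-3p and miR-152-3p (5374 CPM) below it. miR-140-3p stood between miR-125a-5p (376 CPM) and miR-379-5p (343 CPM), miR-140-5p between miR-1839-5p (339 CPM) and miR-872-5p (315 CPM), and miR-145-5p between miR-423-3p (116 CPM) and miR-369-3p (96.5 CPM). None of these 8 neighbours is separated from its member by more than the SD of the libraries.

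Likeness of pattern was described by Pearson's r of log2(CPM + 1) over the 6 libraries, which share depth and composition, among 99 other annotated miRNAs. The strands of miR-140 had r = 0.11 with each other. Nearest to miR-140-3p were miR-31a-5p (r = 0.93), miR-320-3p (r = 0.92) and miR-127-3p (r = 0.91). All 3 were highest in hypoxia replicate 1, where miR-320-3p had 123300 CPM against 9612 to 30200 CPM in the other libraries. Nearest to miR-140-5p were miR-199a-3p (r = 0.78), miR-455-5p (r = 0.74) and miR-210-3p (r = 0.66). miR-199a-3p was highest in hypoxia replicate 3, as miR-140-5p was. Nearest to miR-143-3p were miR-674-3p, miR-672-5p and miR-28-5p, each at r = 0.87 to 0.88. Nearest to miR-145-5p were miR-148b-3p (r = 0.996), let-7g-5p (r = 0.98) and miR-423-3p (r = 0.97). miR-148b-3p and miR-423-3p, like miR-145-5p, had no listed count in either replicate 1 library. miR-143-3p and miR-145-5p had r = -0.73. On this scale a library without a listed count stands far below the rest and weighs heavily in r. This holds for miR-145-5p in both replicate 1 libraries and for miR-672-5p and miR-28-5p in normoxia replicate 2. It also holds for miR-127-3p in replicate 2 of each group, and for miR-455-5p and miR-210-3p in hypoxia replicate 1 and normoxia replicates 1 and 2. These r values are therefore not read as graded likeness.

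Of 20 miRNAs with a known part in cartilage, 14 were listed and 11 tested, both miR-140 strands among them. In edgeR 0 rose and 0 fell at an adjusted p under 0.05. Fitted values lay above 0 for 8 and below 0 for 3, with a median of 0.22. Of all 107 tested sequences 44 lay above 0 and 63 below 0, with a median of -0.14. The most abundant were miR-199a-3p, miR-27b-3p and miR-22-3p. miR-199a-3p had 50199 ± 12578 CPM in hypoxia and 44070 ± 2769 CPM in normoxia (SD of 3 libraries) and a log2 fold change of 0.19 (SE 0.30). miR-27b-3p had 8264 ± 2717 CPM in hypoxia and 7082 ± 2509 CPM in normoxia, with 0.22 (SE 0.40). miR-22-3p had 3920 ± 3076 CPM in hypoxia and 2278 ± 683 CPM in normoxia, with 0.78 (SE 0.55). miR-22-3p had 7470, 2055 and 2234 CPM in hypoxia replicates 1 to 3, against 2257, 1606 and 2971 CPM in normoxia replicates 1 to 3, so hypoxia replicate 1 stood above the rest and the groups overlapped. Its log2 fold change without hypoxia replicate 1 was 0.13 (SE 0.44; adjusted p 0.974 in edgeR). Without that library 12 of the list were tested, with 11 above 0, 1 below 0 and a median of 0.55. The median of all 130 sequences then tested was 0.15. Among the 11 was miR-101a-3p, which the filter had removed from the main fit. It had 24 and 50 counts in hypoxia replicates 2 and 3 and no listed count in normoxia. It thus passed the filter through hypoxia alone, which fixed its sign (log2 fold change 8.23), so it does not add to the count above 0. miR-455-5p had no listed count, 22 and 52 counts in hypoxia replicates 1 to 3 and 17 counts in normoxia replicate 3 alone, and its log2 fold change was 2.11 (SE 2.49). miR-675 strands, miR-92a-3p, miR-193b-3p, miR-29b-3p and miR-365-3p were not listed.

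Of 20 miRNAs with a known part in smooth muscle, 16 were listed and 12 tested, and 0 rose or fell in edgeR at an adjusted p under 0.05. Fitted values lay above 0 for 5 and below 0 for 7, with a median of -0.09, against -0.14 for all 107 tested sequences. Of the 12 tested without hypoxia replicate 1, 9 lay above 0 and 3 below 0, with a median of 0.24, and again 0 passed in edgeR. The median of all 130 sequences then tested was 0.15, so the whole fit moved upward too when that library was left out. miR-21-5p, which made up most of this list's counts, had 263509 ± 92216 CPM in hypoxia and 293470 ± 88527 CPM in normoxia (SD of 3 libraries) and a log2 fold change of -0.16 (SE 0.36). miR-26a-5p had -0.39 (SE 0.35), miR-100-5p -0.24 (SE 0.32) and miR-24-3p -0.59 (SE 0.40). Without hypoxia replicate 1 the sign turned for miR-21-5p at 0.32 (SE 0.32), miR-26a-5p at 0.14 (SE 0.27) and miR-100-5p at 0.16 (SE 0.30). miR-24-3p stayed below 0 without that library, at -0.24 (SE 0.39). miR-133a-3p and miR-133b-3p, muscle miRNAs, were not listed.

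**Figure D4:**
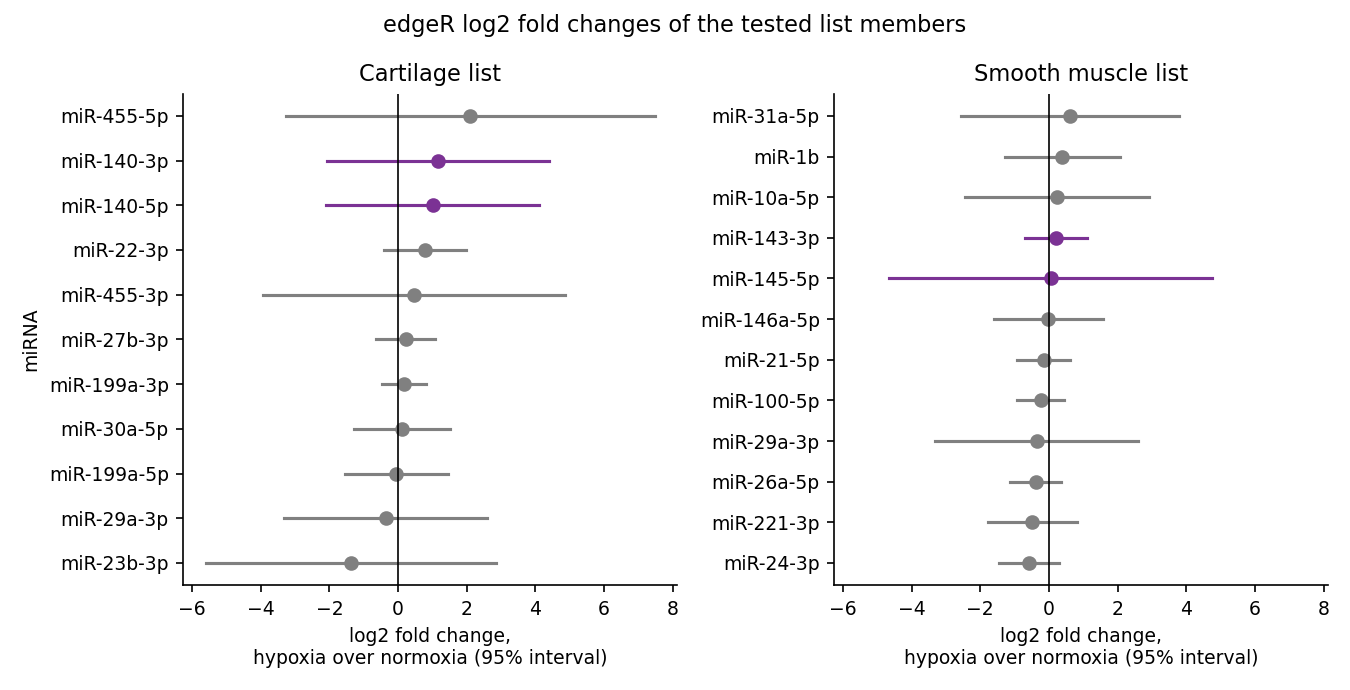
Log2 fold changes in edgeR, hypoxia over normoxia (x axis), with 95% intervals for the tested miRNAs of the cartilage list (left) and the smooth muscle list (right); purple marks both miR-140 strands, miR-143-3p and miR-145-5p. The intervals of all 4 include 0, and that of miR-143-3p, from -0.69 to 1.10, is the narrowest of them.

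Marker miRNAs of other sources were read beside these levels. The striated muscle list, of which 4 of 8 were listed and miR-133a-3p, miR-133b-3p, miR-208a-3p and miR-208b-3p were not, took 0.147 to 1.89% of counts under hypoxia and 0.324 to 0.506% under normoxia. Its highest value was in hypoxia replicate 1, the library in which miR-140-3p and miR-143-3p were highest too. The liver and serum list, with 5 of 6 listed, took 0.633 to 0.970% under hypoxia and 0.585 to 1.17% under normoxia. The neural list, with 3 of 5 listed and miR-124-3p not, took 0.0877 to 0.425% under hypoxia and 0.122 to 0.308% under normoxia. It was highest in hypoxia replicate 1 and, within normoxia, in replicate 1, as the 3p share of miR-140 was. The endothelial list (1 of 2 listed), the blood list (4 of 8, with miR-223-3p and miR-142-3p not listed) and the epithelial list (2 of 7) each took at most 0.103% of a library. The part of these sources and of the serum in the medium in the levels given here was not tested.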

How the data were processed

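Per the labels' protocols, vesicle RNA was ligated to adaptors, amplified, size-selected and read on an Illumina HiSeq platform. The submitters' processing notes name Novoalign 3.02.12, cutadapt 1.9.3 and build rn6. How reads were counted, against which annotation and with which filters is not given in the sources used here. Per the file headers, the authors deposited raw tag counts for each mature miRNA. They also deposited normalized values, whole numbers treated here as a score because the authors' factor is not explained. Blank cells were read as 0. Since no count of 1 occurs, small counts may have been left out by the authors, and unlisted miRNAs get no upper limit.

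The 353 rows were reduced to 311 distinct sequences. edgeR 4.0.16 (R 4.3.3) with filterByExpr (minimum count 10, minimum total 15), TMM factors from 0.905 to 1.25 and a robust quasi-likelihood fit tested 107 sequences, with Benjamini-Hochberg adjustment over all of them. The fit was tested on simulated data. Standard errors are the fold change divided by the root of F. Ratios and shares within a library were compared between groups with exact permutation tests, two-sided (scipy 1.17.1), and hairpins were folded with RNAfold 2.7.2. Of 197 annotated sequences, 180 matched RefSeq by name. Alternatives used RLE or upper-quartile factors, library totals, other filters, DESeq2 1.42.0, limma 3.58.1, the normalized table, a replicate block and each library left out.

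The miRNAs and lists were chosen with earlier results of these data known. Named miRNAs were the 4 members, other strands of their hairpins, neighbours in mean CPM, the 3 most alike, and in both lists the 3 most abundant tested miRNAs and the 2 with the smallest p. mir-3559, mir-28, mir-342, let-7d and mir-24-2 were named after their values were seen. Depth was 106954 to 248542 counts per library, and edgeR's common biological coefficient of variation was 1.07.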

Additional observations from a re-analysis of the deposited data

How the results depend on the processing

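In the alternatives that were run, 0 of the 4 miRNAs were called. The count over all tested sequences was 0 except with the normalized table and a pseudocount of 1, which called 1 unannotated sequence (limma adjusted p 0.0138); the cause was not tested. The log2 fold changes of miR-140-3p and miR-140-5p stayed above 0 in 19 of 19 alternatives, from 0.29 to 1.73 and from 0.64 to 1.43. With each library left out, miR-143-3p ran from -0.0135 to 0.485 and miR-145-5p from -0.49 to 1.57; miR-145-5p was also below 0 in limma-voom (-0.0588) and was removed by a mean count of at least 50. With each library left out, the strand difference ran from -1.26 to 0.41 and the difference in miR-143-3p share from -0.0194 to 0.278 points. The log2 ratio of miR-143-3p to miR-140 stayed below 0 (-1.07 to -0.42) and the miR-140 share above 0 (0.0321 to 0.0912 points) in 10 of 10 alternatives. Leaving out both replicate 1 libraries, and the lists without hypoxia replicate 1, were chosen after seeing the data.

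Same-numbered libraries had correlations of 0.215, 0.0204 and 0.143 between their deviations from the group means, so the numbers were not taken as pairs, and not every library correlated best with its own number. With the replicate number as a block, 0 of 107 sequences were called, and miR-140-3p had 0.71, miR-140-5p 0.96, miR-143-3p 0.24 and miR-145-5p 0.27. Blocked exact sign-flip tests, which cannot go below 0.25, gave p = 0.75 for the strand ratio. For the summed miR-140 share the sign-flip p was 0.25, the smallest possible. For the ratio of miR-143-3p to miR-140 and for the miR-143-3p share the sign-flip p was 0.5. The scaling moved the median of all tested sequences from -0.14 (TMM) to -0.02 (upper quartile).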

Other observations

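The absence of miR-145-5p from both replicate 1 libraries was set against other sequences, after the values were seen. Of 87 sequences listed in all 4 replicate 2 and 3 libraries, 30 were not listed in hypoxia replicate 1, 6 were not listed in normoxia replicate 1 and 5 were listed in neither. These 5 were miR-145-5p, miR-148b-3p, miR-17-5p, miR-196a-5p and miR-423-3p. miR-148b-3p was the most abundant of them, with 102 and 257 counts in hypoxia replicates 2 and 3 and 151 and 70 in normoxia replicates 2 and 3. The labels do not say that a replicate number marks a shared culture, day or run.

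mir-455, whose miRNAs are also known from cartilage, had more 3p than 5p in summed counts, with 223 of 3p and 91 of 5p. Its 3p share was 79.8% in hypoxia replicate 2, but nearer to even in hypoxia replicate 3 (53.15%) and normoxia replicate 3 (56.4%). In normoxia replicate 1 only its 3p strand was listed. miR-455-3p had no listed count, 87 and 59 counts in hypoxia replicates 1 to 3 and 55, no listed count and 22 in normoxia replicates 1 to 3. Like miR-145-5p it was not listed in hypoxia replicate 1.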
